A study of Mus musculus with 6 samples.

Results

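The second hour of a response in NIH3T3 cells, a mouse fibroblast line, was followed by comparing arrays taken at 120 minutes with arrays taken at 60 minutes. The comparison used 4 of the 6 arrays of the study: cells with wild-type LPAR1 and cells with mutant LPAR1, each with 1 array at 60 and 1 at 120 minutes. A further array per genotype, taken at 0 minutes, shows where each gene started and adds to the estimate of spread behind the p-values. The 2 genotypes served as the pairs, so each time point rested on 2 arrays. LPAR1 is a receptor for lysophosphatidic acid, a serum lipid that acts on fibroblasts through G proteins. The labels give the cell line, the receptor status and the minutes, and they do not name the mutation, the agent or change applied at 0 minutes, or the number of cultures or clones. No array repeated a combination of genotype and time, so the p-values measure the spread between these arrays alone, which may be technical.

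Of 45101 probe sets on the array, 34945 were paired with 1 gene symbol, and these covered 18194 genes. Each gene was read through its brightest probe set, and the 10916 genes at or above an intensity of 39.2 were tested. Levels are intensities on a linear scale. Differences are log2(intensity + 16) at 120 minus 60 minutes, so a positive value is a rise in the second hour and 1 on this scale is a 2-fold change. A gene rose or fell where its adjusted p was below 0.05 in a limma fit with genotype and time as terms. The ± after a difference is its SE from that fit, with 2 arrays per time. The spread behind this SE was estimated from all 6 arrays and shrunk toward that of other genes.

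Growth stimulation of resting fibroblasts sets off a timed programme of transcription. Immediate early genes, many of them transcription factors with very unstable mRNA, need no new protein and peak first. Delayed early genes follow as the first products accumulate, and several of them encode feedback inhibitors, mRNA decay factors and secreted growth factors. Genes that hold cells in a resting state are turned down over the same period, and ribosome production increases before DNA synthesis begins.

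The arrays had mean intensities between 299.4 and 307.6, and the median over all tested genes of the second-hour difference was -0.02. The number of arrays limits the precision. The ratio of 5' to 3' control signal for Actb, a sign of RNA integrity, was 0.650 and 0.683 at 60 minutes and 0.699 and 0.661 at 120 minutes, against 0.579 and 0.505 at 0 minutes. For Gapdh the ratio was 1.026 and 1.029 at 60, 0.991 and 1.029 at 120 and 1.020 and 0.954 at 0 minutes. The fibroblast markers Vim (11020 to 11441) and Col1a2 (10361 to 10944) were high on all arrays, while the markers Lum and Fap lay below the level of 39.2. The summed intensity of the 13 fibroblast markers was 63584 to 64652 at 60 and 63432 to 65601 at 120 minutes. Of 11 tested with limma, Thy1 rose (0.21 ± 0.064) and Pdgfra fell (-0.34 ± 0.066), 9.09% each, against 10.2% and 15% of all genes. Other probe sets of Pdgfra gave -0.14 and 0.06. Markers of other cell types passed the filter on low values in 4 of 8 cases for macrophages, 4 of 7 for epithelium, 2 of 6 for endothelium, and 1 each of 6 for skeletal muscle, 4 for adipocytes and 6 for neural cells. Of these markers, Ptprc, Cd68, Krt8, Krt18, Pecam1, Myog and Adipoq were below 39.2 on every array. Krt14, a keratin of basal epithelium, was between 1001 and 1267, Lpl between 382 and 902 and Epcam between 160 and 277. Cd14 was between 211 and 294 and Lyz2 between 158 and 179. Dimmer markers that passed were Csf1r (51.2 to 85.6), Adgre1 (60.6 to 76.8), Krt5 (57.8 to 88.7), Tubb3 (48.8 to 100) and Cdh5 (22.4 to 64.6). Summed intensities at 60 and at 120 minutes were 572 to 638 and 583 to 649 for macrophage, 1547 to 1564 and 1418 to 1478 for epithelial, 249 to 326 and 305 to 370 for endothelial, 486 to 906 and 457 to 841 for adipocyte and 146 to 161 and 169 to 183 for neural markers. The muscle sum was 459 to 570 and then 676 to 801, most of it Mef2c, a transcription factor, which rose by 0.61 ± 0.076. The endothelial receptor gene Flt1 rose by 0.25 ± 0.082 on its brightest probe set and by 1.72 and 1.63 on 2 others, and the epithelial cadherin gene Cdh1 was lower (-0.34 ± 0.097). Their part in the results was not tested. Lpar1 itself read 1290 and 1514 at 60 and 1289 and 1438 at 120 minutes in the wild-type and the mutant (difference -0.04 ± 0.055; adjusted p = 0.706).

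In the second hour 1112 genes rose, which is 10.2% of those tested, and 1634 fell, which is 15%. Every one of them moved in the same direction in both genotypes, which the call itself nearly requires. Any difference between the genotypes in time course is part of the residual spread, so a gene that moved in opposite directions could hardly pass. Most shifts were small: the median size of a called difference was 0.41. A difference of at least 2-fold was reached by 58 of the genes that rose and by 128 of those that fell, and of at least 4-fold by 2 and 14. In both genotypes separately, 45 genes (0.412%) were at least 2-fold higher and 106 (0.971%) at least 2-fold lower at 120 than at 60 minutes. The second-hour differences of wild-type and mutant cells, which share no array, had a Pearson correlation of 0.785 and a Spearman correlation of 0.614 across the 10916 genes, and genes are not independent replicates. Fitting all 34945 probe sets instead of 1 per gene gave 1623 sets higher (4.64%) and 1935 lower (5.54%). Without the wild-type array at 60 minutes the number of genes that rose was 682, and without the mutant array at 60 minutes the number that fell was 1044.

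**Figure D1:**
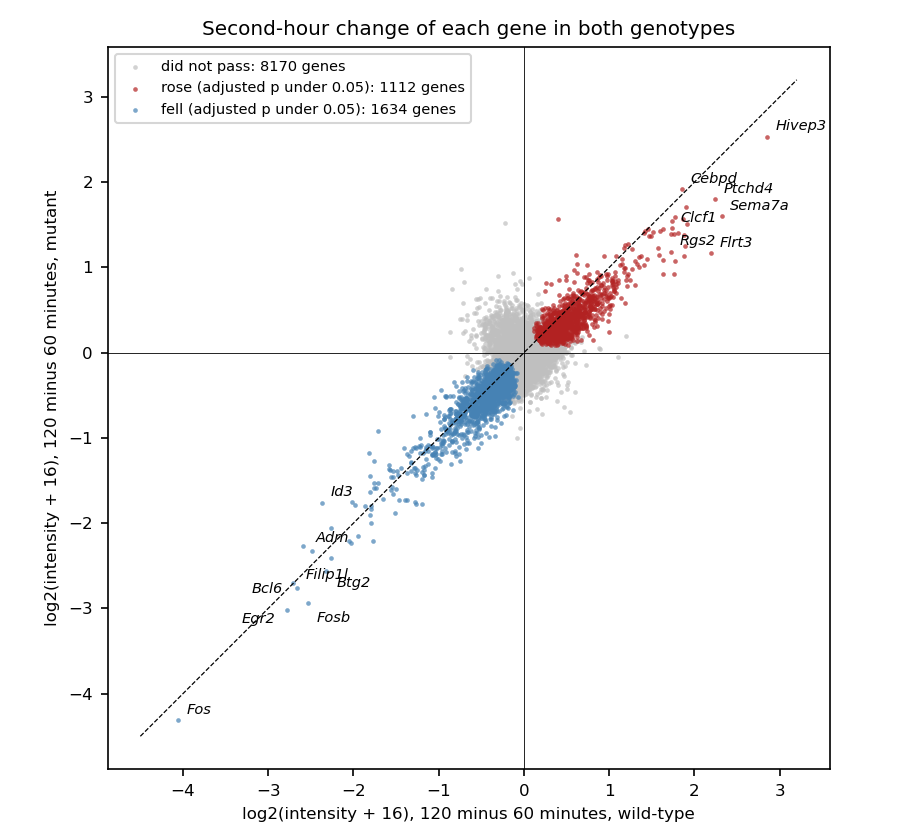
Each point is 1 of the 10916 genes, with the second-hour difference in wild-type cells on the x axis and in mutant cells on the y axis, both in log2(intensity + 16) at 120 minus 60 minutes. The 1112 genes that rose and the 1634 that fell lie along the dashed line of equal change, with Fos lowest at -4.18 and Hivep3 highest at 2.69 on average.

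The largest falls were of immediate early genes. Fos, a subunit of the AP-1 transcription factor and the classic immediate early gene, read 2516 in wild-type cells and 1486 in mutants at 60 minutes, and 136 and 59.7 at 120 minutes. Both late arrays lay far below both early ones and also below the starting levels of 633 and 595. Its difference was -4.18 ± 0.16 (adjusted p = 1.94e-07), an 18.2-fold fall. Egr2, a zinc finger transcription factor, read 3388 and 2898 at 60 and 481 and 343 at 120 minutes (-2.90 ± 0.088; adjusted p = 5.25e-08). Unlike Fos, it stayed above its starting levels of 113 and 105 in both genotypes. Fosb, a relative of Fos, went from 1109 and 991 to 178 and 115 (-2.74 ± 0.16; adjusted p = 2.38e-06), again above its starting levels of 24.1 and 33.3. Junb, which pairs with Fos proteins, went from 3366 and 2498 to 589 and 484 (-2.41 ± 0.068; adjusted p = 4.07e-08), a little below its starting levels of 633 and 548. For each of these genes the 60 minute arrays did not overlap with the 120 minute arrays, which their choice as the largest falls largely required.

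The other genes with the largest falls have varied roles. Btg2, an antiproliferative protein that promotes mRNA deadenylation, went from 3201 and 2928 to 629 and 484 (-2.44 ± 0.070; adjusted p = 4.07e-08). F3, tissue factor, the cell-surface starter of blood clotting, went from 2987 and 3685 to 609 and 682 (-2.34 ± 0.096; adjusted p = 2.73e-07). Zfp36, which binds AU-rich elements and speeds the decay of mRNA, went from 838 and 721 to 193 and 140 (-2.13 ± 0.10; adjusted p = 7.75e-07). Zfp36 and F3 ended below their starting levels in both genotypes, whereas Btg2 ended above its own. Atf3, a stress-induced transcription factor, fell by 2.16 on the log2 scale and Egr1, a zinc finger factor of the same family as Egr2, fell by 2.13. Egr1 remained a bright gene at 120 minutes, with 2097 and 1765 after 8737 and 8226. A further 3 of the 12 largest falls belonged to genes that had been less than 2-fold higher at 60 than at 0 minutes. Bcl6, a transcriptional repressor, was at 673 and 543 at 0, 1150 and 1037 at 60 and 169 and 139 at 120 minutes (-2.71 ± 0.070; adjusted p = 2.68e-08), although a dimmer probe set of the gene gave -1.01. Filip1l went from 2585 and 2994 to 382 and 447 (-2.70 ± 0.067). Adm, the vasodilator peptide adrenomedullin, went from 1118 and 1039 to 172 and 203 (-2.43 ± 0.095). All 3 finished well below where they had been at 0 minutes.

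**Figure D2:**
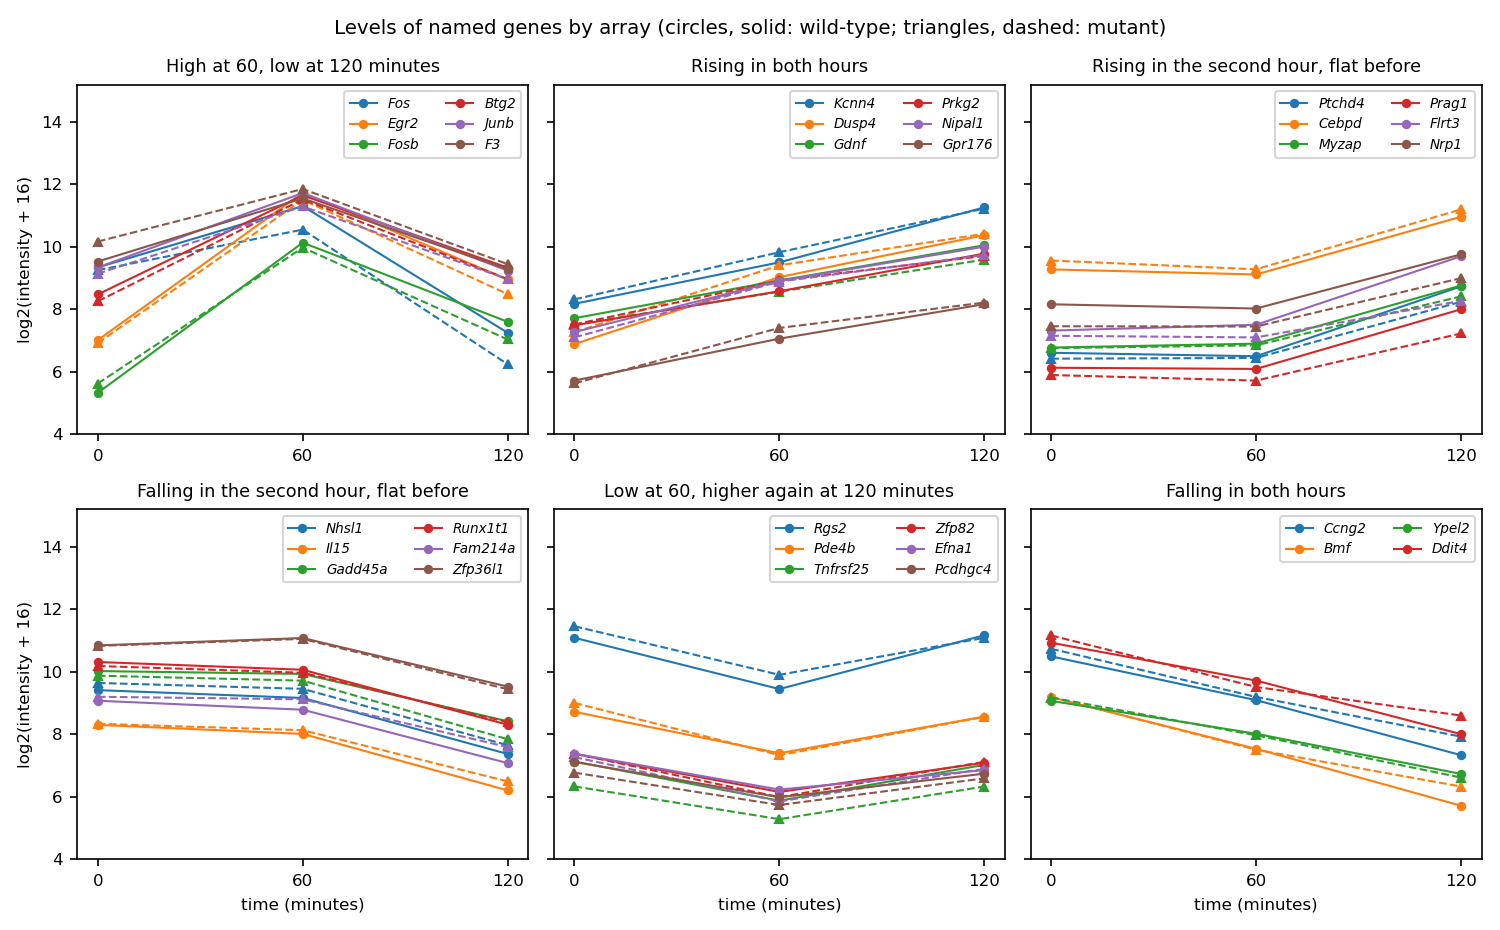
Levels of named genes in log2(intensity + 16) on the y axis against minutes on the x axis, with 1 point per array, circles and solid lines for wild-type and triangles and dashed lines for mutant cells. Fos falls from 2516 and 1486 at 60 minutes to 136 and 59.7 at 120 minutes, while Cebpd is flat in the first hour and rises from 539 and 607 to 1984 and 2337 in the second.

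At least 2-fold higher at 60 than at 0 minutes and then at least 2-fold lower at 120 than at 60 minutes, in both genotypes, were 34 genes. Both conditions use the 60 minute arrays, so this number is a description. The sequences before the start site are shown for 6 of them, picked by hand from those with the largest falls. Junb and Atf3 fell by more than Zfp36 (-2.41 and -2.16 against -2.13) and are not shown. Of the motifs listed below, their promoters held only the TGACG core. Where a gene had several promoters, a promoter with a CArG box was taken first, then that with the most kinds of motif. This choice applied to Egr2, with 5 promoters. RefSeq sequences of mouse build GRCm38.p6 gave 33 promoters for 25 of the 34 genes, each of 250 bases before and 50 after the start. They were searched on both strands for the CArG box, which is the binding sequence of serum response factor, the cAMP response element TGACGTCA and its core TGACG, which lies within the full element, the AP-1 site TGACTCA or TGAGTCA, the E-box CACGTG, the EGR site GCGNGGGCG and the NF-kB site. The 250 bases before the start follow, in the direction of transcription, with every match in capitals.
Fos (chr12:85473640-85473889, plus strand): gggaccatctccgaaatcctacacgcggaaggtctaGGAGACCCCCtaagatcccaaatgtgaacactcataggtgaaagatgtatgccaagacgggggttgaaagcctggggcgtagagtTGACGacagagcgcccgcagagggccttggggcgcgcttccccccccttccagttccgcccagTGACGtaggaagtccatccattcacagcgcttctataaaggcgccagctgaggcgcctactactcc
Fosb (chr7:19310046-19310295, minus strand): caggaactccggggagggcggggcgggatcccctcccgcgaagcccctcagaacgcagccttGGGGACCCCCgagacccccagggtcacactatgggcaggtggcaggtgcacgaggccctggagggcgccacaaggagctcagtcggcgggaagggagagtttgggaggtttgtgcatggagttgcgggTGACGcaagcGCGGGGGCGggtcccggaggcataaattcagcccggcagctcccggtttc
Egr2 (chr10:67537619-67537868, plus strand): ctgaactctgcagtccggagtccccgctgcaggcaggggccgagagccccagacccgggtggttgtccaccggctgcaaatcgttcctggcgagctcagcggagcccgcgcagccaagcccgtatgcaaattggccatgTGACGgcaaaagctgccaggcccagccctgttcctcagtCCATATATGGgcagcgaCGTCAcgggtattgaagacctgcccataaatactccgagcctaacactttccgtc
Btg2 (chr1:134079156-134079405, minus strand): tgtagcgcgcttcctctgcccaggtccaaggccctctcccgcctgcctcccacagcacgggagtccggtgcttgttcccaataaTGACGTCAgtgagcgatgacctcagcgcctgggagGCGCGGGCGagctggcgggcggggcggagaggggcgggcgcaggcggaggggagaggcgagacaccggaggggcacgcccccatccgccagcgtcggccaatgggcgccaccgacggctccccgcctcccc
Zfp36 (chr7:28379229-28379478, minus strand): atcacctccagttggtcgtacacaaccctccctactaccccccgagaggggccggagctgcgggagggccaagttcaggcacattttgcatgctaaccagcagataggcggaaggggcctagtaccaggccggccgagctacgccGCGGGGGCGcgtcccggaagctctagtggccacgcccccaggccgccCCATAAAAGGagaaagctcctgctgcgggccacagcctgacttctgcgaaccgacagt
F3 (chr3:121723287-121723536, plus strand): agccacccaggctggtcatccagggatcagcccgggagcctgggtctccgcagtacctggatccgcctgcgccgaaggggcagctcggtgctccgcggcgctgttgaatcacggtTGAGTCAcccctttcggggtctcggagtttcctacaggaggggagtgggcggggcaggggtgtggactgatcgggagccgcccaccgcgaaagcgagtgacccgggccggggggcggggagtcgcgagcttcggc
In the Egr2 promoter the capitals mark the CArG box CCATATATGG, from 72 to 63 bases before the start, with a TGACG core on either side of it. In the Zfp36 promoter they mark the CArG box CCATAAAAGG and an EGR site, and in that of Btg2 a full cAMP response element and an EGR site. In Fos they mark an NF-kB site and 2 TGACG cores, in Fosb an NF-kB site, a TGACG core and an EGR site, and in F3 an AP-1 site. These are matches of letters, not shown binding sites.

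Over the 33 promoters of the early genes that were later lower, the TGACG core was found in 57.6%, against 31.4% of the 11335 promoters of all tested genes. The CArG box was in 18.2% against 1.28%, but its 6 promoters belonged to only 3 genes, Egr2, Zfp36 and Mideas. Mideas fell on its brightest probe set alone (-1.86), while its other sets gave -0.09 to 0.09. Counted by gene, the CArG box was in 12% of the 25 genes against 1.54% of 8874. The NF-kB site was in 21.2% against 10.3%, and the EGR site in 18.2% against 10.5%. The AP-1 site was in 6.06% against 3.76% and the E-box in 9.09% against 9.91%. These shares are given without a test.

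Immediate early transcription factors as a list moved mostly downward. Of 28 tested, 22 fell (78.6%, against 15% of all genes) and 3 rose (10.7%, against 10.2%), with a median of -0.96 against -0.02. The size of the fall varied widely within the list. Arc, a cytoskeletal protein gene grouped here for its immediate early kinetics, went from 665 and 435 to 201 and 122 (-1.68 ± 0.17). Egr3 went from 4837 and 4625 to 1821 and 1381 (-1.57 ± 0.085; a dim further probe set gave 0.14), and Myc, the growth-promoting factor, from 1888 and 2008 to 776 and 735 (-1.35 ± 0.067). Other members kept more of their 60 minute level. Nr4a1, an orphan nuclear receptor, was 6280 and 5614 at 60 and still 4399 and 3959 at 120 minutes (-0.51 ± 0.050; adjusted p = 6.45e-05).

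The 3 members that rose belonged to the same protein families as members that fell. Nr4a3 went from 300 and 209 to 629 and 382 (0.93 ± 0.13; adjusted p = 0.000654), and Nr4a2 from 641 and 682 to 1097 and 958 (0.62 ± 0.098; adjusted p = 0.00119). Both are nuclear receptors close to Nr4a1. Fosl1, the AP-1 subunit Fra-1, went from 958 and 1122 to 1354 and 1242 (0.32 ± 0.088; adjusted p = 0.0243). The late arrays lay above the early ones for all 3, while those of Fos and Fosb lay below. The call for Fosl1 was lost without either wild-type array (adjusted p = 0.249 without 60 and 0.253 without 120 minutes).

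Feedback regulators of receptor kinase and ERK signalling were divided. Of 17 tested, 9 fell (52.9%, against 15% of all genes) and 5 rose (29.4%, against 10.2%), with a median of -0.37. Dusp8, a phosphatase that inactivates MAP kinases, went from 434 and 248 to 119 and 71.8 (-1.66 ± 0.095; adjusted p = 2.05e-06). Its relatives Dusp5 and Dusp6, which act on ERK, fell by 1.07 and 0.87 on the log2 scale, and Errfi1, an inhibitor of the EGF receptor, by 0.86. Dusp4, which also acts on ERK, moved the other way. It rose through both hours, from 103 and 138 at 0 to 507 and 664 at 60 and 1312 and 1354 at 120 minutes (second hour 1.18 ± 0.090; adjusted p = 1.26e-05). The Sprouty-related inhibitors Spred1 and Spred2 rose by 0.48 ± 0.093 and 0.50 ± 0.076, although the mean over all probe sets of Spred2 gave 0.23 and missed the threshold (adjusted p = 0.059).

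Of 13 mRNA decay and antiproliferative factors tested with limma, 10 fell (76.9%, against 15% of all genes) and none rose (10.2% of all genes did), also at an unadjusted p below 0.05, with a median of -0.49. Zfp36l1, a relative of Zfp36, differed in its timing. It read 1821 and 1801 at 0, 2146 and 2105 at 60 and 720 and 679 at 120 minutes (-1.58 ± 0.055; adjusted p = 8.91e-08), so its change lay in the second hour. Zc3h12a, the endonuclease Regnase-1, went from 144 and 160 to 72.6 and 74.0 (-0.91 ± 0.11), and its dim second probe set went against this with 0.51. Noct, which encodes the rhythmic protein Nocturnin, kept most of its level, with 1556 and 1884 followed by 1142 and 1285 (-0.49 ± 0.081).

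Inducible repressors of other pathways included 11 that fell of 25 tested (44%, against 15% of all genes) and 2 that rose (8%, near the 10.2% of all genes), with a median of -0.21. The 4 inhibitors of BMP and basic helix-loop-helix signalling with the largest falls were Id3, which went from 479 and 471 to 80.0 and 128 (-2.06 ± 0.12), Id1 (-1.39 ± 0.084), Smad6 (-1.02 ± 0.13) and Smad7 (-0.85 ± 0.10). Socs3, a brake on cytokine receptors, went from 1629 and 1611 to 703 and 566 (-1.34 ± 0.076). Rgs2, which limits signalling by G proteins, was the largest rise of the list and is described with the genes that recovered. Nab1 and Nab2, corepressors of the EGR factors, did not pass, at 0.12 ± 0.057 and -0.05 ± 0.062.

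Targets of YAP and TEAD moved both ways. Of 21 tested, 8 fell (38.1%, against 15% of all genes) and 5 rose (23.8%, against 10.2%). Those that fell included the matricellular proteins Ccn1, which went from 7403 and 7858 to 2165 and 1689 (-1.99 ± 0.11; adjusted p = 1.55e-06), and Ccn2, from 9338 and 7373 to 4449 and 3206 (-1.13 ± 0.055; adjusted p = 8.59e-07). Ankrd1, a muscle-related ankyrin repeat protein, fell by 1.60 on the log2 scale, and F3, described above, is also a member. The smallest falls were those of Lats2, Dlc1 and Asap1, at -0.42, -0.40 and -0.16. The rises ran from Tead1 at 0.30 ± 0.057 to Wwc1 at 0.46 ± 0.10, a call lost without the wild-type array at 60 minutes (adjusted p = 0.109). Averaging all probe sets of a gene left 5 that fell, where 1261 of 10916 genes did. It left 2 that rose, which is near the share of all genes (1006 of 10916).

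Among 16 tested chemokines and NF-kB targets, 8 fell (50%, against 15% of all genes) and 1 rose (6.25%, against 10.2%), with a median of -0.42. Cxcl1, which attracts neutrophils, went from 544 and 589 to 256 and 248 (-1.12 ± 0.11; adjusted p = 8.32e-05). Ptgs2, the inducible cyclooxygenase, went from 7622 and 7335 to 5286 and 3935 (-0.71 ± 0.076). Ccl2, which attracts monocytes, read 112 in wild-type cells and 410 in mutants at 60 minutes, then 70.5 and 244 at 120 minutes (-0.64 ± 0.097). For Ccl2 the times overlapped between genotypes, because the mutant array at 120 minutes exceeded the wild-type array at 60 minutes, and the fall was seen only within each genotype.

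Whether a gene that went up in the first hour came down in the second was counted on separate arrays, because noise in a shared 60 minute array would by itself push the hours in opposite directions. Genes were chosen by the first hour of 1 genotype and read in the second hour of the other. Of 142 genes at least 2-fold higher at 60 than at 0 minutes in wild-type cells, 66 (46.5%) were at least 1.5-fold lower at 120 than at 60 minutes in mutant cells, against 4.66% of all genes tested. Another 11 (7.75%) were at least 1.5-fold higher there, against 2.21%, and 42 stayed within 0.32 on the log2 scale. Their median difference was -0.51, against -0.04 for all genes.

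Choosing in mutant cells gave 167 genes. In wild-type cells 59 of them (35.3%, against 3.68% of all genes) were at least 1.5-fold lower and 27 (16.2%, against 3.44%) at least 1.5-fold higher at 120 than at 60 minutes. In both readings the share that was lower and the share that was higher exceeded those of all genes. Few genes had been lowered in the first hour. Of 40 chosen in wild-type cells, 9 (22.5%, against 2.21% of all genes) were at least 1.5-fold higher in the second hour of mutant cells and 4 (10%, against 4.66%) at least 1.5-fold lower. Of 39 chosen in mutant cells, 11 (28.2%, against 3.44%) were higher and 9 (23.1%, against 3.68%) lower in wild-type cells.

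The reverse reading asked where the movers of the second hour had been in the first. Of 117 genes at least 2-fold lower at 120 than at 60 minutes in wild-type cells, 47 (40.2%) had been at least 1.5-fold higher at 60 than at 0 minutes in mutant cells, against 3.22% of all genes, and 11 (9.4%) at least 1.5-fold lower, against 2.33%, while 38 had stayed within 0.32 on the log2 scale. Of 145 chosen in mutant cells, 56 (38.6%) had been higher in wild-type cells, against 3.11%, and 8 (5.52%) lower, against 1.92%, while 60 had stayed within that limit. Of 88 genes at least 2-fold higher at 120 than at 60 minutes in wild-type cells, 38 had stayed within 0.32 in the first hour of mutant cells. Another 23 (26.1%, against 3.22% of all genes) had already been at least 1.5-fold higher there and 9 (10.2%, against 2.33%) at least 1.5-fold lower. Of 51 chosen in mutant cells, 24 had stayed within 0.32 in wild-type cells, 12 (23.5%, against 3.11%) had been higher and 8 (15.7%, against 1.92%) lower.

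**Figure D3:**
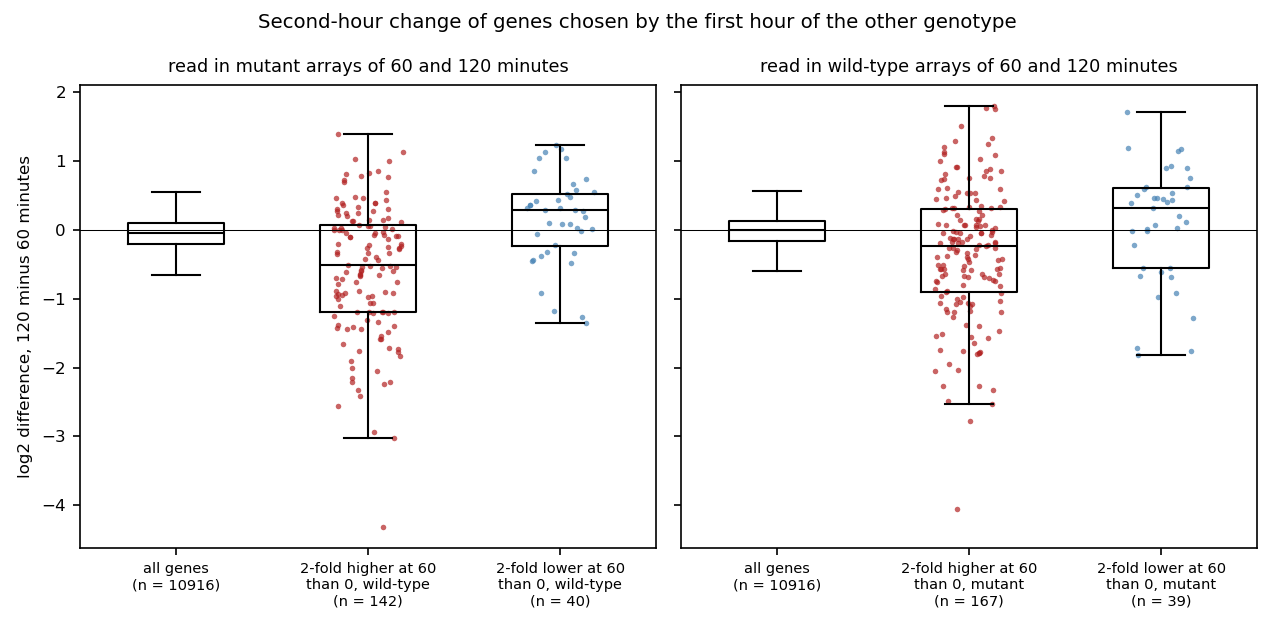
Second-hour differences in log2(intensity + 16) on the y axis for all 10916 genes and for genes at least 2-fold higher or lower at 60 than at 0 minutes in the other genotype, as points with boxes of the quartiles, a line at the median and whiskers to the last value within 1.5 times the box height. The median of the 142 genes chosen as higher in wild-type cells is -0.51 when read in mutant cells, and that of the 167 chosen in mutant cells is -0.24 when read in wild-type cells.

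Not every induced gene was shut off, and some went on rising. Among genes at least 2-fold higher at 60 than at 0 minutes in both genotypes, Kcnn4, a calcium-activated potassium channel, had the largest second-hour rise. It read 273 and 303 at 0, 711 and 894 at 60 and 2443 and 2377 at 120 minutes (1.58 ± 0.083; adjusted p = 1.34e-06). Gdnf, a neurotrophic growth factor, went from 470 and 362 to 1046 and 756 (1.08 ± 0.079; adjusted p = 9.70e-06). Prkg2, a cyclic GMP-dependent kinase, Nipal1 and the orphan receptor Gpr176 rose by 0.99, 0.98 and 0.96. The 120 minute arrays of all of them lay above the 60 minute arrays, which lay above the arrays at 0 minutes. This order follows largely from how the genes were chosen.

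The onset of delayed genes was seen in 16 genes that changed by under 0.32 on the log2 scale in the first hour and rose by at least 2-fold in the second, in both genotypes. Cebpd, a transcription factor of the C/EBP family, read 605 and 741 at 0, 539 and 607 at 60 and 1984 and 2337 at 120 minutes (1.88 ± 0.061; adjusted p = 6.62e-08). Nrp1, a co-receptor for semaphorins and VEGF, was 270 and 160 at 0, 245 and 159 at 60 and 851 and 495 at 120 minutes (1.64 ± 0.078; adjusted p = 7.59e-07). Flrt3, a cell adhesion protein, went from 166 and 121 to 816 and 293 (1.68 ± 0.23; adjusted p = 0.000473). The 60 and 120 minute arrays did not overlap for any of these 3 genes, and the rise of Flrt3 was larger in wild-type than in mutant cells, a difference that has no test with these arrays. Myzap and Sipa1l2 rose by 1.71 ± 0.10 and 1.62 ± 0.12. Prag1, a pseudokinase scaffold, rose by 1.71 ± 0.14. For Ptchd4 (2.02 ± 0.11) and Nudt6 (1.51 ± 0.10), other probe sets above the intensity of 39.2 gave 0.17 and -0.40, and 1 of 3 further probe sets of Nrp1 gave 0.53. The promoters of these delayed genes, 19 for 14 genes, held no CArG box, against 1.28% of all promoters, and 15.8% held the TGACG core, against 31.4%. At so low a share of all promoters, none in 19 says nothing particular about these genes.

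The largest rise of all was that of Hivep3, a large zinc finger protein. Its brightest probe set read 123 and 147 at 0, 197 and 227 at 60 and 1516 and 1393 at 120 minutes (2.69 ± 0.093; adjusted p = 8.91e-08). The other 4 Hivep3 probe sets did not show it, with differences of 0.13, -0.09, -0.10 and 0.15, so the rise belongs to 1 probe set and not to the gene as a whole. Sema7a, a membrane-anchored semaphorin, and Cdca7, a MYC-responsive gene, rose by 1.96 and 1.81 from 60 minute levels below 39.2, where the size depends on the constant of 16. Angptl4, a secreted inhibitor of lipoprotein lipase, had first gone down. It was 180 and 151 at 0, 95.2 and 74.1 at 60 and 363 and 255 at 120 minutes (1.68 ± 0.092; adjusted p = 1.70e-06). Pmepa1, an inhibitor of TGF-beta signalling, went from 363 and 359 to 1314 and 980 (1.61 ± 0.097), with another probe set at 0.30.

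Growth factors and growth-promoting cytokines had more members that rose than fell. Of 16 tested, 8 rose (50%, against 10.2% of all genes) and 2 fell (12.5%, near the 15% of all genes), with a median of 0.29. Clcf1, a cytokine of the interleukin-6 family, went from 593 and 574 to 2018 and 1610 (1.60 ± 0.095; adjusted p = 2.56e-06). Pdgfa, a platelet-derived growth factor chain, went from 813 and 809 to 1847 and 1624 (1.08 ± 0.068; adjusted p = 3.63e-06). Il11, another interleukin-6 relative, went from 69.4 and 38.5 to 297 and 103 (a 2.83-fold rise; adjusted p = 0.000979). All of these were higher at 120 than at 60 minutes in both genotypes without overlap. Csf1, the macrophage growth factor, rose by 0.95 ± 0.080, but 2 of its other probe sets gave 0.06 and 0.12. The 2 that fell were Hbegf, a ligand of the EGF receptor, from 1933 and 1710 to 1768 and 1070 (-0.40 ± 0.11; adjusted p = 0.0272), and Bdnf (-0.25 ± 0.075). Hbegf overlapped between times, with the wild-type array at 120 minutes above the mutant array at 60 minutes. Both calls were lost without either mutant array, with adjusted p of 0.358 and 0.196 for Hbegf and 0.425 and 0.203 for Bdnf without 60 and without 120 minutes. Without genotype as a term, 3 of the 16 rose, where 400 of all 10916 genes did.

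Most ribosome biogenesis and polyamine synthesis genes rose: 21 of 28 tested with limma (75%, against 10.2% of all genes), and none fell, also at an unadjusted p below 0.05, with a median of 0.46. Grwd1, a ribosome assembly factor, went from 210 and 227 to 499 and 465 (1.09 ± 0.080; adjusted p = 1.06e-05). Ppan, needed for the large ribosomal subunit, went from 304 and 356 to 704 and 704 (1.06 ± 0.078; adjusted p = 1.04e-05). Nop56, a core protein of the particles that methylate ribosomal RNA, went from 861 and 951 to 1772 and 1712 (0.93 ± 0.071). Each of these levels was higher on both late arrays than on both early ones. Srm, spermidine synthase, rose by 0.86 ± 0.064 and Odc1, the first enzyme of polyamine synthesis, by 0.48 ± 0.11. The abundant nucleolar proteins Npm1 and Ncl did not pass, at -0.06 ± 0.046 and 0.07 ± 0.046. Ribosomal proteins themselves, 12 tested with limma, had a median of 0.00, and none rose or fell, also at an unadjusted p below 0.05. Dimmer probe sets of Rps3 and Rps24 gave -0.81 and 0.66, while the remaining further sets of these genes gave -0.32 to 0.09.

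Of 19 promoters of 17 of the risen ribosome biogenesis genes, 52.6% held the TGACG core, against 31.4% of all promoters. The E-box CACGTG was in 5 (26.3%), against 9.91% of all promoters. All 5 matches lay within the 50 bases after the start, where 15.4% of the 1123 promoters with an E-box had one. They are shown in 30 bases around each match, with the E-box in capitals, because of this common position.
Grwd1 (chr7:45830740-45830769, minus strand): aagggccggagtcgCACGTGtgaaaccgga
Ltv1 (chr10:13193092-13193121, minus strand): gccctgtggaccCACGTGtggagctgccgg
Mybbp1a (chr11:72441347-72441376, plus strand): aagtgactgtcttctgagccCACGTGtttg
Utp20 (chr10:88826765-88826794, minus strand): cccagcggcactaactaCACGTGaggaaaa
Wdr43 (chr17:71616220-71616249, plus strand): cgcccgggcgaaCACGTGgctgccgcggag
The first base of the match was 35 bases from the start in Grwd1, 29 in Ltv1, 41 in Mybbp1a, 38 in Utp20 and 18 in Wdr43, counting the start as 1. The second-hour rise of these 5 genes ran from 0.30 for Mybbp1a and Ltv1 to 1.09 for Grwd1, and risen members without the match, such as Ppan and Nop56, lay in the same range. Without the wild-type array at 60 minutes the calls for Ltv1 (adjusted p = 0.107), Utp20 (0.0532) and Odc1 (0.0662) were lost.

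Genes of the G1 phase of the cell cycle moved both ways, and none of the called differences reached 2-fold. Of 15 tested, 4 rose (26.7%, against 10.2% of all genes) and 2 fell (13.3%, near the 15% of all genes). Ccnd1, cyclin D1, went from 1470 and 1391 to 2059 and 2090 (0.53 ± 0.056; adjusted p = 9.52e-05). Cdc25a, a phosphatase that activates cyclin-dependent kinases, went from 122 and 128 to 219 and 256 (0.84 ± 0.086; adjusted p = 8.23e-05). Cdkn1b, the inhibitor p27 that holds resting cells in G1, went from 1051 and 1024 to 536 and 494 (-0.99 ± 0.075; adjusted p = 1.21e-05). Late and early arrays were apart in all 3 genes. The E cyclins Ccne1 and Ccne2 were at 0.03 ± 0.091 and 0.02 ± 0.13 and did not pass.

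Secreted and matrix genes also moved unevenly. Of 20 secreted proteases, inhibitors and pericellular matrix genes, 8 rose (40%, against 10.2% of all genes) and 3 fell (15%, the same share as of all genes). Timp1, an inhibitor of metalloproteinases, went from 1483 and 1262 to 3537 and 2282 (1.05 ± 0.096; adjusted p = 3.98e-05), and Cd44, the hyaluronan receptor, from 2305 and 2900 to 4630 and 4257 (0.78 ± 0.096). Adamts1, a protease that cuts proteoglycans, went the other way, from 934 and 748 to 313 and 261 (-1.50 ± 0.092; adjusted p = 3.12e-06). Of 20 collagens and structural matrix genes, 5 rose (25%) and none fell by limma, also at an unadjusted p below 0.05, led by the basement membrane chains Col4a1 (0.72 ± 0.056) and Col4a2 (0.53 ± 0.055). In the fit without genotype as a term, 1 of the secreted genes and none of the collagens rose, where 400 of all 10916 genes did.

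SRF and MRTF cytoskeletal targets had 7 that rose of 24 tested (29.2%, against 10.2% of all genes) and 2 that fell (8.33%, against 15%), with a median of 0.16. Apart from the falls of Filip1l and of Fhl2 (-0.70 ± 0.089), called differences were small. Vcl, vinculin, rose by 0.27 ± 0.050, Tpm4, a tropomyosin, by 0.29 ± 0.049 and Actn1, alpha-actinin, by 0.30 ± 0.056. Acta2, smooth muscle actin, held its level, with 7237 and 7002 at 60 and 7607 and 7274 at 120 minutes (0.06 ± 0.047). Without genotype as a term none of the 24 rose, where 400 of all 10916 genes did. Fewer than 7 rose without the wild-type array at 120 minutes, as did fewer of all genes.

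Genes linked to FoxO transcription factors and to quiescence fell. Of 23 tested, 16 fell by limma (69.6%, against 15% of all genes) and none rose, also at an unadjusted p below 0.05, with a median of -0.71. Some had already gone down in the first hour. Ccng2, cyclin G2, a brake on the cell cycle, read 1423 and 1689 at 0, 529 and 569 at 60 and 145 and 227 at 120 minutes (-1.52 ± 0.10; adjusted p = 5.88e-06). Bmf, a pro-apoptotic member of the BCL2 family, read 566 and 568, then 169 and 165, then 36.3 and 64.1 (-1.50 ± 0.14; adjusted p = 4.93e-05). Ddit4, an inhibitor of mTORC1, read 1932 and 2275, then 825 and 714, then 240 and 371 (-1.31 ± 0.14; adjusted p = 0.000113). Levels stepped down at each time in both genotypes, as the choice of these genes largely required. Ypel2, which is outside the list, fell in the same way, by 1.32 on the log2 scale in the second hour.

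Other members of this list changed more in the second hour than in the first, where Trp53inp1, Fbxo32, Sesn1 and Foxo3 had differences of -0.73, -0.65, -0.77 and -0.46. Trp53inp1, a stress-induced regulator of cell death and autophagy, went from 1153 and 930 to 281 and 258 (-1.88 ± 0.070; adjusted p = 1.36e-07). Fbxo32, a ubiquitin ligase subunit known as atrogin-1, went from 103 and 115 to 16.7 and 21.8 (-1.83 ± 0.11). Foxo3 itself went from 370 and 449 to 146 and 162 (-1.32 ± 0.073; adjusted p = 1.82e-06). Sesn1, a stress-induced inhibitor of mTORC1, fell by 1.63 on the log2 scale. Txnip and Pdk4, which are in the same list, did not pass in the second hour, at 0.09 ± 0.082 and 0.02 ± 0.089, after first-hour differences of -3.44 and -0.96.

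A change of under 0.32 on the log2 scale in the first hour and a fall of at least 2-fold in the second, in both genotypes, was seen in 32 genes. This group was defined after the values had been seen. It was led by Nhsl1 (-1.80 ± 0.067, with a dim further probe set at -0.18) and by Il15, a cytokine that supports lymphocytes, which went from 242 and 264 to 57.5 and 73.8 (-1.72 ± 0.091; adjusted p = 1.35e-06). Gadd45a, a growth arrest and DNA damage gene, read 1023 and 922, then 959 and 824, then 325 and 213 (-1.70 ± 0.096; adjusted p = 2.04e-06). Ppargc1a, a coactivator of mitochondrial genes, fell by 1.52 on the log2 scale, and all 4 of its other probe sets gave between -1.34 and -1.28. The transcriptional corepressor Runx1t1 fell by 1.67 on the log2 scale.

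Mitotic genes fell by modest amounts and in nearly all members. Of 23 G2/M and mitotic genes, 21 fell by limma (91.3%, against 15% of all genes) and none rose, also at an unadjusted p below 0.05, with a median of -0.50. Cenpe, a kinetochore motor, went from 227 and 338 to 152 and 162 (-0.76 ± 0.12; adjusted p = 0.00143). Bub1, a checkpoint kinase, went from 268 and 289 to 160 and 172 (-0.69 ± 0.081; adjusted p = 0.000194), and the proliferation marker Mki67 from 609 and 655 to 392 and 396 (-0.66 ± 0.065; adjusted p = 6.76e-05). Early and late levels were apart in these 3 genes. Cdk1, the mitotic kinase, went from 974 and 1177 to 808 and 1009 and overlapped between times (-0.24 ± 0.058; adjusted p = 0.0127), and its call was lost without either 60 minute array or the wild-type array at 120 minutes (adjusted p from 0.0641 to 0.080). Prc1 and Tpx2 did not pass, at -0.14 ± 0.074 and -0.11 ± 0.085. In RNA from whole cultures, fewer cells of a kind and less RNA per cell cannot be told apart. Without genotype as a term, 11 of the 23 fell, where 607 of all 10916 genes did.

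DNA replication genes fell less and less firmly. Of 20 tested with limma, 8 fell (40%, against 15% of all genes) and none rose, with a median of -0.27. At an unadjusted p below 0.05 the numbers were 14 and 0, where 20.9% of all genes were lower and 14.5% higher. Tk1, thymidine kinase, was at -0.50 ± 0.093 and Mcm5, a subunit of the replicative helicase, at -0.39 ± 0.086, a call lost without either mutant array (adjusted p = 0.0694 and 0.075). Without genotype as a term 1 of the 20 fell, near the share of all genes in that fit (607 of 10916). Fewer members fell when any array of these times was left out, as did fewer of all genes. The share of the list then lay closer to that of all genes.

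Most circadian clock genes fell. Of 14 tested, 10 fell (71.4%, against 15% of all genes) and 2 rose (14.3%, near the 10.2% of all genes), with a median of -0.59. The 2 that rose were Arntl, which encodes the activator BMAL1, from 327 and 287 to 500 and 464 (0.63 ± 0.072; adjusted p = 0.000165), and Cry1, a repressor of it, from 128 and 121 to 211 and 186 (0.61 ± 0.092; adjusted p = 0.000895). Dbp, a clock output factor, went from 724 and 777 to 334 and 281 (-1.25 ± 0.083; adjusted p = 5.25e-06). Nr1d1, the nuclear receptor REV-ERB alpha that represses Arntl, went from 69.6 and 74.6 to 22.4 and 20.2 (-1.24 ± 0.12). Per1, which is induced by serum, had gone up before it came down, with 624 and 625 at 60 and 348 and 357 at 120 minutes (-0.80 ± 0.077; adjusted p = 5.70e-05). Per3 was at -0.84 ± 0.080 on its brightest probe set, while its other 5 sets gave -0.26 to 0.12.

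The list of unfolded protein and amino acid stress genes had large falls in a few members. Of 28 tested with limma, 9 fell (32.1%, against 15% of all genes) and none rose, with 4 higher at an unadjusted p below 0.05, and the median was -0.07. Those that fell were led by targets of ATF4 and CHOP: Chac1, which degrades glutathione, went from 3014 and 2230 to 860 and 613 (-1.81 ± 0.056; adjusted p = 5.25e-08), and Trib3, a pseudokinase, from 612 and 508 to 243 and 182 (-1.34 ± 0.074). Ddit3, which encodes CHOP, went from 1208 and 1376 to 564 and 635 (-1.09 ± 0.056; adjusted p = 1.24e-06). Asns, another ATF4 target, did not pass, at 0.02 ± 0.052. Neither did Pdia4 (0.05 ± 0.067) and Hsp90b1 (-0.00 ± 0.065), which fold proteins in the endoplasmic reticulum. With quantile normalization 3 of the 28 rose, near the share of all genes (1337 of 10916).

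Genes that had dropped in the first hour and recovered formed a small group. Rgs2 read 2158 and 2793 at 0, 681 and 940 at 60 and 2284 and 2158 at 120 minutes (1.45 ± 0.11; adjusted p = 9.70e-06), with 2 of 3 further probe sets at 1.53 and 1.61 and a dim set at 0.17. Pde4b, a phosphodiesterase that breaks down cyclic AMP, read 404 and 496, then 152 and 144, then 362 and 360 (1.20 ± 0.094; adjusted p = 1.41e-05). The death receptor Tnfrsf25 rose by 1.10 ± 0.11 and the membrane-bound ligand Efna1 by 0.83 ± 0.12, both from dimmer levels. At 120 minutes Rgs2 was back within the range of its 0 minute arrays, and Pde4b stayed a little below its own. In these genes the arrays at 60 minutes were lower than those at either other time within each genotype, which is how they were chosen.

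Lists of metabolism and protein folding moved little. Cholesterol and fatty acid synthesis had 6 of 22 lower by limma (27.3%, against 15% of all genes) and none higher, also at an unadjusted p below 0.05, the largest being Stard4, a sterol carrier, at -0.35 ± 0.056. Fewer than these 6 fell without either 60 minute array or without the mutant array at 120 minutes, as did fewer of all genes. The share of the list then lay closer to that of all genes. Glycolysis and hypoxia response had 2 higher and 2 lower of 16 (12.5% each, near the 10.2% and 15% of all genes), among them Hk2, a hexokinase (0.43 ± 0.071), and Adm. Heat shock proteins and co-chaperones had 1 higher and 2 lower of 14 (7.14% and 14.3%, near those of all genes), with Dnajb1, a partner of HSP70, at -0.91 ± 0.059 on its brightest probe set and -0.26 on its other.

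**Figure D4:**
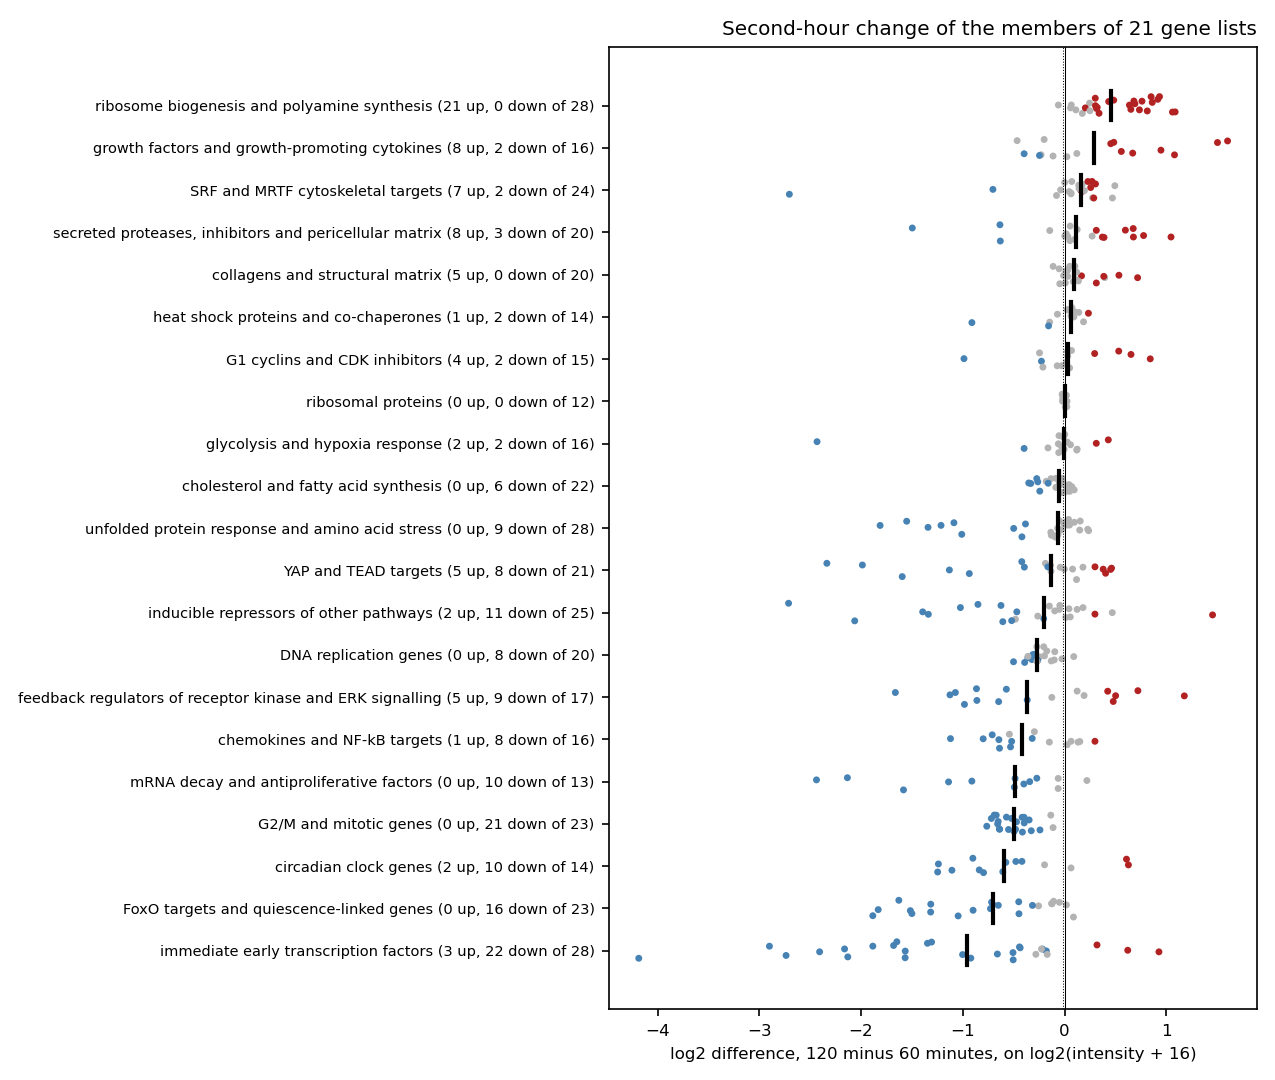
Second-hour log2 differences, 120 minus 60 minutes, of the tested members of 21 gene lists, with 1 point per gene, red where it rose, blue where it fell and grey where it did not pass, a bar at each list's median and a dotted line at the median of all genes. The medians run from -0.96 for immediate early transcription factors to 0.46 for ribosome biogenesis and polyamine synthesis.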

How the data were processed

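Total RNA was measured on 6 Affymetrix arrays. The authors deposited 1 intensity for each probe set and array, made with PLIER in Affymetrix Power Tools 1.14.3.1, per the submitters' processing notes; background correction and scaling are not given in the sources used here. Of 45101 probe sets, 64 controls, 932 with several genes and 9160 with none were left out. Gene identifiers of 34741 sets matched RefSeq. Values were used as log2(intensity + 16), which understates changes of dim genes. A filter removed genes whose mean level lay under the 40th percentile.

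All 6 arrays entered a limma 3.58.1 fit (R 4.3.3) with genotype, the block that pairs arrays per the labels, and time as additive terms and a shrinkage trend. The residual had 2 degrees of freedom and the prior 7.77. Tests were two-sided, with Benjamini-Hochberg adjustment over 10916 genes. The residual holds noise together with any genotype difference in time course. The procedure was tested on simulated data.

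Members and lists were chosen with earlier results of these data known. The rule named the 12 largest rises and falls, up to 6 members per list, and the largest movers among genes that were higher, lower or flat in the first hour. Genes named beyond it were chosen after their values were seen. Alternatives were other constants (1 and 64), filters, probe-set rules, quantile normalization, the 4 later arrays alone, no block, no trend, and leaving out each array.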

Additional observations from a re-analysis of the deposited data

Results flagged for a closer look

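In 3 genes the second-hour change was at least 1.5-fold upward in mutant and downward in wild-type cells. With 1 array per genotype and time, this difference between genotypes was not tested, and genes this extreme were picked from all 10916. Ctrb1, a pancreatic protease precursor, read 280 in wild-type cells and 117 in mutants at 60 minutes, then 149 and 207 at 120 minutes, a difference of -0.84 in wild-type and 0.75 in mutant cells. Sost, the bone protein sclerostin, read 220 and 105, then 129 and 198, a difference of -0.70 and 0.83. Slc9a3r2, a scaffold protein of membrane transporters, read 197 and 71.6, then 112 and 157, a difference of -0.74 and 0.98. In all 3 the mutant array at 60 minutes was the lowest of the 6 arrays. The same held for other genes with a large difference between genotypes, among them Calml3, Epha1, Skor1 and Tex35, but not for Rasgrp2 or E2f8. That array also had the lowest median intensity, 34.1 in a range of 34.1 to 37.3. The part of this array in the 3 differences was not tested.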

How the results depend on the processing

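Counts of genes that rose or fell stayed within 1.5 times the reported ones under the other constants, filters, probe-set rules and normalization, without the trend and on the 4 later arrays alone. Shares were less stable, because the number tested differed. Without a filter 1005 rose and 1434 fell of 18194 genes. Of all 34945 probe sets 4.64% were higher and 5.54% lower, against 10.2% and 15% of the genes in the main fit. Without the replicate block (genotype) 400 rose and 607 fell. Leaving out 1 array at a time gave 682 to 1109 that rose and 1044 to 1609 that fell. With a constant of 64, 24 genes were at least 2-fold higher in both genotypes. For genes lowered in the first hour and then higher in the other genotype, choosing in wild-type cells gave 2 of 13 with a constant of 64, 16 of 65 with 1 and 3 of 14 with the 60th percentile filter, and choosing in mutant cells gave 2 of 14, 18 of 63 and 2 of 13. Of 231 named genes, the mean over all probe sets turned the direction of Tpm1 (-0.02; adjusted p = 0.87) and 15 others lost their call under it. Without the block 57 lost their call, and under the remaining settings at most 21. The cause was not tested. The number of arrays, and the low signal of genes near an intensity of 39.2, limit the precision.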

Other observations

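Several genes outside the lists also changed by at least 2-fold in both genotypes in the second hour, and those given here were picked after their values were seen. Ptger4, a receptor for prostaglandin E2, read 385 in wild-type cells and 437 in mutants at 0, 2868 and 3179 at 60 and 734 and 706 at 120 minutes (-2.04 ± 0.070; adjusted p = 8.91e-08). Klf7, a Kruppel-like transcription factor, read 896 and 847, then 1910 and 1895, then 540 and 461 (-1.90 ± 0.067; adjusted p = 9.43e-08). The stress kinase Plk3 fell by 1.45 on the log2 scale, the pseudokinase Trib1 by 1.48 and the growth arrest genes Gadd45g and Gadd45b by 1.48 and 1.13. All of them had been higher at 60 than at 0 minutes in both genotypes.

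Adaptors of insulin and growth factor signalling were among the genes that fell without a preceding rise in both genotypes. Irs1, an insulin receptor substrate, went from 1415 and 1340 to 463 and 510 (-1.47 ± 0.068; adjusted p = 6.77e-07). Gab1, a docking protein of growth factor receptors, went from 351 and 311 to 143 and 139 (-1.15 ± 0.079). Bcl2l11, the pro-apoptotic protein BIM, fell by 1.32 on the log2 scale. For Cblb, a ubiquitin ligase that limits receptor signalling, the brightest probe set fell by 1.10 and another was lower too (-0.92), but a further set was higher by 1.17 (adjusted p = 7.64e-05), so the gene has no single direction here. Among genes that rose, Hmga2, a chromatin protein, went from 1085 and 1763 to 3387 and 3750 (1.36 ± 0.11; adjusted p = 1.55e-05). Il1r1, the interleukin-1 receptor, went from 68.5 and 59.5 to 209 and 187 (1.42 ± 0.12; adjusted p = 2.39e-05). Mgp, matrix Gla protein, rose by 1.57 ± 0.13 and Nfatc1, a calcium-regulated transcription factor, by 1.12 ± 0.063. For all 4 the late arrays lay above the early ones.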
